A study of Mus musculus with 188 samples.

Results

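The BXD strains are recombinant inbred mice, each an inbred mosaic of the genomes of C57BL/6J and DBA/2J. In the aorta of these strains the transcript of Pttg1 was found at a high level or a low level, and this split was used to ask what else in the aorta differed. The groups were chosen by measured values, the strain means of the _s_at probe set of Pttg1 on the log2 scale of the RMA values. The array carries 3 probe sets for Pttg1, told apart here by their suffixes _s_at, _a_at and _at. Strains above 10 formed the Pttg1-high group and strains below 8 the Pttg1-low group. These were 11 high strains (20 arrays) and 15 low strains (27 arrays), together 26 of the 28 BXD strains and of the 94 strains in the series. BXD32/TyJ, at 11.61, was left out by the rule. Its descriptions carry a suffix that the labels do not explain. BXD19/TyJ, at 8.66, fell between the thresholds.

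RNA had been taken from whole aorta of male mice aged 16 weeks on a chow diet, without treatment, and hybridised to 188 arrays covering 94 inbred and recombinant inbred strains. The high group was BXD5/TyJ, BXD8/TyJ, BXD9/TyJ, BXD11/TyJ, BXD20/TyJ, BXD21/TyJ, BXD22/TyJ, BXD24/TyJ-Cep290<rd16>/J, BXD33/TyJ, BXD39/TyJ and BXD40/TyJ. The low group was BXD1/TyJ, BXD2/TyJ, BXD6/TyJ, BXD12/TyJ, BXD13/TyJ, BXD14/TyJ, BXD15/TyJ, BXD18/TyJ, BXD27/TyJ, BXD28/TyJ, BXD29-Tlr4<lps-2J>/J, BXD34/TyJ, BXD36/TyJ, BXD38/TyJ and BXD42/TyJ. All strains are labelled wild-type, although the names BXD24/TyJ-Cep290<rd16>/J and BXD29-Tlr4<lps-2J>/J carry alleles of Cep290 and Tlr4. For comparison the same thresholds were applied to the AXB/BXA family (A/J by C57BL/6J; 11 high, 11 low and 6 between) and to the BXH family (C3H/HeJ by C57BL/6J; 5 high, 4 low and 1 between).

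Pttg1 encodes securin, which holds the protease separase inactive until the anaphase-promoting complex marks securin for destruction and the cohesin rings between sister chromatids are cut. Its transcript normally rises with the mitotic genes in dividing cells, and it was first described as a gene that transforms cells when overexpressed. The adult aortic wall is made mainly of smooth muscle cells that divide rarely.

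The RefSeq promoter of Pttg1 is shown because the level of this transcript defines the groups, and because the reference genome comes from C57BL/6J, the parent at the high level. The sequence covers the 250 bases before the annotated start, on the minus strand of chr11:43425982-43426231 in GRCm38.p6. Capitals would mark matches, on either strand, to the cell cycle homology motif TTTGAA, the CCAAT box, the GC box GGGCGG or the TATA motif TATAAA.

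Pttg1: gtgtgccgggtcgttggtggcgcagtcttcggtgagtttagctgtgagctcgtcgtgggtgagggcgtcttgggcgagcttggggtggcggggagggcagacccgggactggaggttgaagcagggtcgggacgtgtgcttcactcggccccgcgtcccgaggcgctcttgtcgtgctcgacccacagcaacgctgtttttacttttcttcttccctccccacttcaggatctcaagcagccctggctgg

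No match was present, so all letters are in lower case, and 63.6% of the bases were G or C. Among 32851 RefSeq promoter windows of the same length, 16.0% held TTTGAA, 33.8% CCAAT, 32.7% GGGCGG and 12.4% TATAAA. The DBA/2J sequence of this window was not analysed here, nor were the bases under the array probes, so whether C57BL/6J and the other parents differ there at Pttg1, Fancl or Pnpt1 was not tested. A difference under the probes and a difference in transcript level cannot be told apart from these values.

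The gene that defined the split lay at separate levels in the groups. In the high strains, the _s_at probe set ran from 11.37 in BXD9/TyJ to 11.68 in BXD40/TyJ, with a median of 11.52 and an SD of 0.0952. In the low strains it ran from 5.56 in BXD12/TyJ to 7.66 in BXD27/TyJ, with a median of 6.33 and an SD of 0.589. The low group was thus far more spread than the high group. The nearest strains inside the thresholds were therefore BXD9/TyJ and BXD27/TyJ, and the means of the groups differed by 5.16 (35.7-fold). These values chose the groups and are a description. BXD27/TyJ had 1 array, and the next strain in the low group was BXD2/TyJ at 7.22 (7.23 and 7.21). BXD14/TyJ had arrays at 7.88 and 5.85, the widest gap within a low strain.

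C57BL/6J, DBA/2J and A/J lay inside the ranges of the groups, and C3H/HeJ (mean 7.72) just above the highest low BXD strain. C57BL/6J was at 11.56, 11.61 and 11.34 and was the only inbred strain outside the families above 10. DBA/2J was at 6.27 and 5.51, A/J at 7.06 and 7.37, and C3H/HeJ at 7.85 and 7.58. Both other Pttg1 probe sets separated the groups as well, with no overlap. The _a_at probe set averaged 8.22 ± 0.389 (SD, n = 11 strains) in the high strains and 5.18 ± 0.270 (SD, n = 15 strains) in the low strains. The _at probe set averaged 5.37 ± 0.363 (SD, n = 11 strains) and 3.97 ± 0.210 (SD, n = 15 strains).

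**Figure D1:**
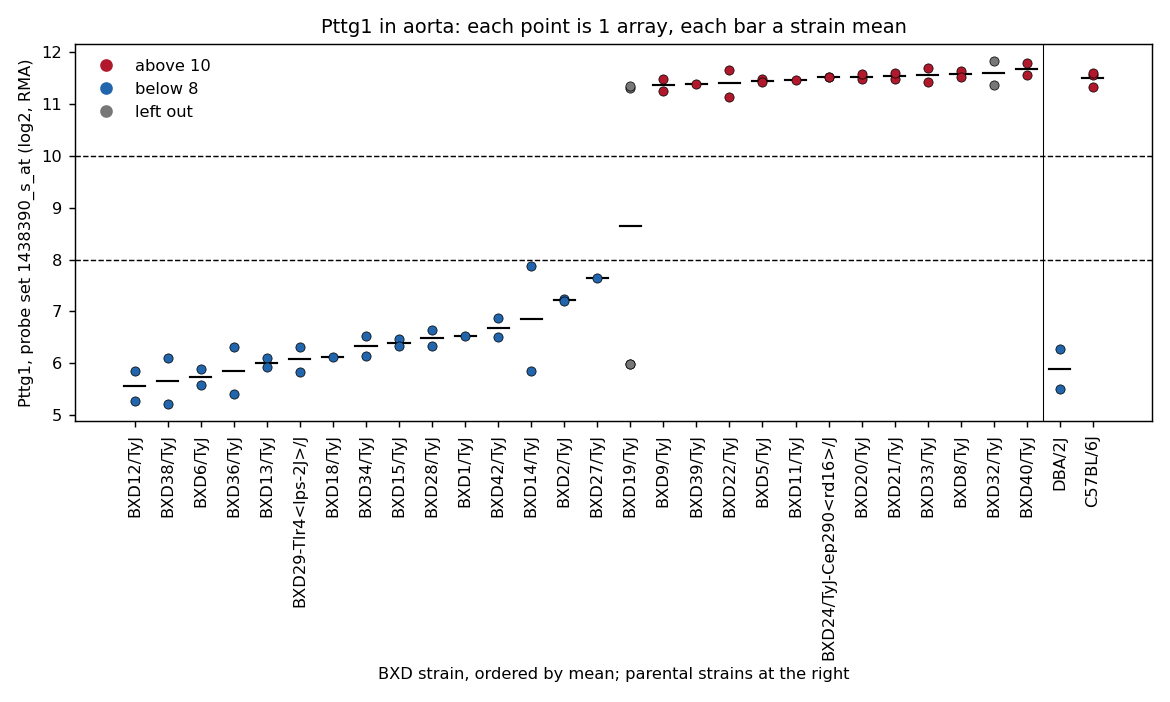
Level of Pttg1 (the _s_at probe set, log2 RMA values) in each BXD array, with the strains ordered by mean and the parental strains at the right; points are arrays, bars are strain means and dashed lines are the thresholds at 8 and 10. All high strain means lie between 11.37 and 11.68, all low ones between 5.56 and 7.66, and the 4 BXD19/TyJ arrays fall into both ranges.

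Some strains had arrays that went against each other, which bears on the groups. The arrays of BXD19/TyJ gave 5.98, 5.98, 11.32 and 11.36, so its mean lies between the thresholds without any array lying there. Over 184 probe sets that separate strains, replicates 1 and 2 correlated at 0.918 with each other and replicates 3 and 4 at 0.914, while the correlation across the pairs went down to -0.03. Replicates 1 and 2 were closest to DBA/2J among the other strains (0.814 and 0.806). In the AXB/BXA family, BXA16/PgnJ was at 11.34, 11.68 and 7.79 and its replicates disagreed in the same way, so the AXB/BXA results are given with it, and again without it in 1 paragraph. Of 179 arrays from strains with 2 or more, 9 had a correlation under 0.5 with an array of their own strain, and none of these belonged to the 26 strains compared. The 2 arrays of BXA14/PgnJ, an AXB/BXA low strain, were among the 9 (0.456), with Pttg1 at 7.48 and 7.03. The AXB/BXA contrast was not repeated without BXA14/PgnJ. The aorta markers Acta2 (alpha smooth muscle actin, 11.70 to 12.99), Eln (elastin, 8.17 to 10.25) and Pecam1 (an endothelial adhesion molecule, 7.60 to 8.57) were present in all BXD strain means. A score of thymocyte genes or of squamous epithelium genes exceeded 1 on 4 of 20 arrays of the high group and 11 of 27 of the low group.

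The main question was which other transcripts differed between Pttg1-high and Pttg1-low aortas. No probe set was called, the 3 of Pttg1 being left untested because they chose the groups or measure the same gene. In limma on 1 mean per strain, 0 of 22324 probe sets (0%) passed an adjusted p of 0.05, and 838 (3.75%) had an unadjusted p below 0.05, of which 523 were higher and 315 lower in the high group. No probe set had groups of strain means that did not overlap (0%). The median standard error of a difference was 0.0886, and 14 probe sets differed by more than 1 on the log2 scale. The largest of these differences was in Serpina1b (an alpha-1 antitrypsin gene, +2.39 ± 0.744 SE, adjusted p = 0.983 in limma), with strain means from 3.70 to 9.17 in the high and from 3.22 to 8.35 in the low group. The difference C57BL/6J minus DBA/2J at this probe set was -3.60 (adjusted p = 0.0840 in limma), opposite in sign to the split. In AXB/BXA and BXH the Serpina1b difference was +0.18 ± 0.590 and -0.33 ± 0.263 (SE). Serpina1b was named after its value had been seen. A fit of the single arrays, with the strain as a random block, called 2 probe sets, Fancl and Hint1, both on chromosome 11. That fit took 1 correlation between arrays of a strain, 0.192, for all probe sets. Where the arrays of a strain are more alike than that, its p-values tend to be too low.

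The closest neighbours of Pttg1 in gene order were described first, because a strain that inherits a C57BL/6J allele at Pttg1 usually inherits its neighbours with it. The 5 measured genes on either side were Hmmr, Nudcd2, Ccng1, Gabra6 and Gabrb2 on one side and Slu7, Fabp6, Ttc1, Adra1b and Il12b on the other. None was called, against 0% of all probe sets. Slu7, a splicing factor and the adjacent gene, was at 6.66 ± 0.319 in the high and 6.74 ± 0.278 in the low strains (SD, n = 11 and 15) by its _s_at probe set, the one with the highest mean. The difference was -0.08, with a 95% interval from -0.32 to 0.15. Of the 6 probe sets for Slu7, 1 had an unadjusted p below 0.05, with a difference of -0.22. Hmmr, a hyaluronan receptor that binds the mitotic spindle, differed by -0.24 (95% interval -0.55 to 0.06). Ccng1, a cyclin induced by p53, differed by -0.01 (95% interval -0.31 to 0.29), and Nudcd2, a chaperone partner, by -0.09 (95% interval -0.26 to 0.08). The other neighbours, among them the GABA receptor subunits Gabra6 and Gabrb2 and the cytokine gene Il12b, had mean levels of 2.95 to 3.60, and their differences lay between -0.09 and 0.11.

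Ttc1, which encodes a tetratricopeptide repeat adaptor 6 places from Pttg1, was the one close neighbour with an unadjusted p below 0.05 in every probe set. By the stronger of its 2 probe sets the high strains ran from 7.02 to 7.81 (median 7.45) and the low strains from 7.34 to 8.03 (median 7.72), so the groups overlapped. The difference was -0.25 ± 0.0791 (SE, unadjusted p = 0.00425, adjusted p = 0.983 in limma). Its other probe set differed by -0.26 ± 0.0700 (SE, unadjusted p = 0.00106, adjusted p = 0.983 in limma). In the AXB/BXA family the same probe sets differed by -0.11 and -0.13, with unadjusted p-values of 0.411 and 0.302 in limma.

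Along chromosome 11 the share of probe sets with an unadjusted p below 0.05 was given by distance in protein-coding genes from Pttg1, beside 3.75% over all probe sets. It was 4 of 46 (8.70%) within 20 genes, 10 of 134 (7.46%) from 21 to 100 genes, 9 of 296 (3.04%) beyond 100 and up to 300 genes and 37 of 1034 (3.58%) farther away. It was 619 of 16229 (3.81%) on the other chromosomes, and chromosome 13 had the highest share, 6.49%. The shares near Pttg1 rest on few probe sets, several of which belong to 1 gene. Of the 10 probe sets from 21 to 100 genes away, 8 were lower in the high strains. Beside Fancl and Pnpt1 they included Ppp4r3b (a regulatory subunit of protein phosphatase 4, 66 places away, -0.43 and -0.22), Mpg (a DNA glycosylase, 40 places away, -0.40), Chac2 (a glutathione-degrading enzyme, 49 places away, -0.26) and Xpo1 (the nuclear export receptor, 81 places away, -0.21). Vrk2, a kinase gene 70 places away, was higher in both of its probe sets that passed 0.05 (+0.19 and +0.21). Their adjusted p in limma was 0.983 in each case, and these genes were named after their values had been seen.

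**Figure D2:**
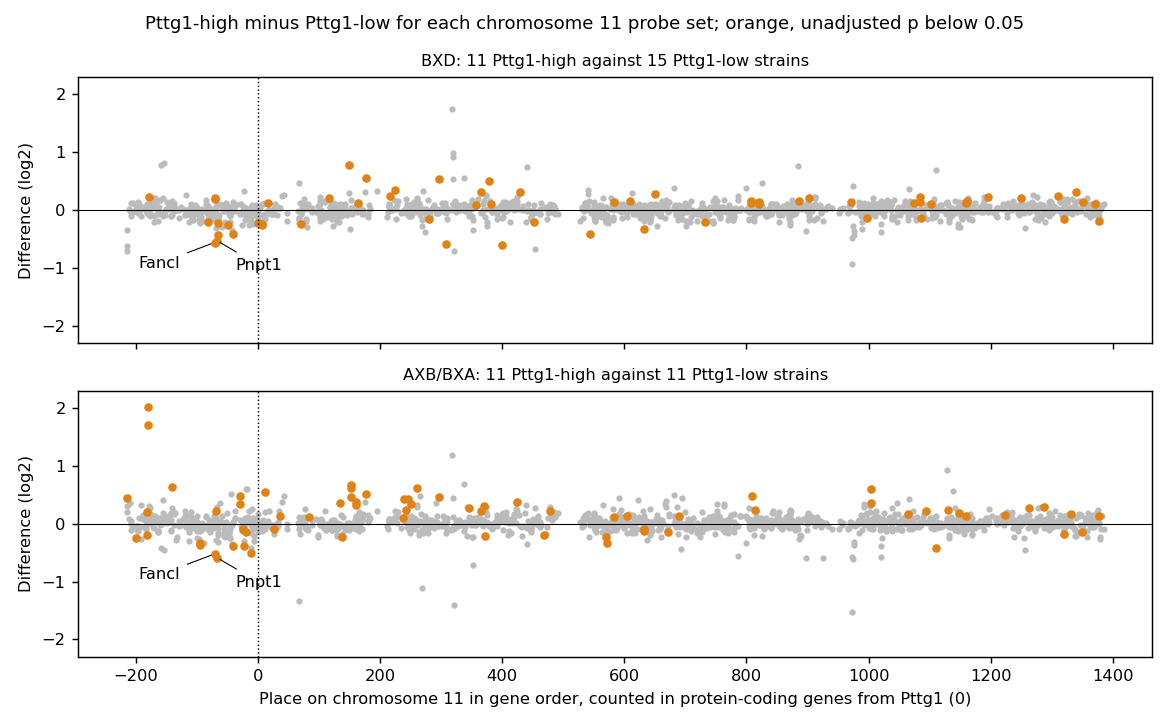
Difference between Pttg1-high and Pttg1-low strains (log2) for each chromosome 11 probe set, by its place in gene order from Pttg1, in the BXD strains (top) and the AXB/BXA strains (bottom); orange points have an unadjusted p below 0.05. Fancl and the _at probe set of Pnpt1, 71 and 67 places from Pttg1, lie below 0 in both families. They are at -0.56 and -0.53 in BXD and at -0.52 and -0.59 in AXB/BXA.

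Fancl had the lowest p-value of all probe sets. It encodes the ubiquitin ligase of the Fanconi anaemia pathway, which repairs DNA crosslinks, and was picked out after its values were seen. Its level in the high strains ran from 4.50 in BXD11/TyJ to 5.63 in BXD20/TyJ (median 4.87). In the low strains it ran from 5.15 in BXD12/TyJ to 5.96 in BXD38/TyJ (median 5.45). Of the high strains, 10 of 11 were below the low group's median, and all 15 low strains were above the high group's median, but the ranges overlapped through BXD20/TyJ and BXD24/TyJ-Cep290<rd16>/J. The difference was -0.56 ± 0.0983 (SE, unadjusted p = 5.06e-06, adjusted p = 0.113 in limma), so it was not called. It was called without BXD20/TyJ (-0.63, adjusted p = 0.00141 in limma), without BXD12/TyJ (-0.58, adjusted p = 0.0387 in limma) and in the fit of single arrays (-0.54, adjusted p = 0.0442 in limma). BXD20/TyJ was the high strain with the highest Fancl level, so leaving it out follows from the values seen. C57BL/6J was at 4.98, 4.14 and 5.09, and DBA/2J at 5.88 and 5.73. The parental difference of Fancl was not called against DBA/2J (-1.07, adjusted p = 0.202 in limma), A/J (-0.71, adjusted p = 0.520) or C3H/HeJ (-0.99, adjusted p = 0.140).

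Pnpt1 encodes the mitochondrial polynucleotide phosphorylase, which processes RNA in the organelle, and lies 4 places from Fancl. By its _at probe set the high strains ran from 3.17 to 4.29 (median 3.35) and the low strains from 3.22 to 4.42 (median 4.06). Most high strains lay below most low strains, and the same strains broke the order as for Fancl. BXD20/TyJ (4.29) and BXD24/TyJ-Cep290<rd16>/J (4.04) were the highest of the high group for both genes, and BXD12/TyJ (3.22) and BXD1/TyJ (3.43) were the lowest of the low group for both genes. The difference was -0.53 ± 0.136 (SE, unadjusted p = 0.000644, adjusted p = 0.983 in limma). C57BL/6J was at 3.27, 3.36 and 3.46, and DBA/2J at 4.08 and 4.42. This difference between the parents was called (-0.89, adjusted p = 0.00238 in limma), as it was against A/J (-0.74, adjusted p = 0.0272) and C3H/HeJ (-0.79, adjusted p = 0.00900). The other Pnpt1 probe set, _a_at, has a mean level of 6.16, against 3.79 for _at. It differed by +0.08 ± 0.125 (SE) between the BXD groups, so the 2 probe sets of this gene did not move together.

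**Figure D3:**
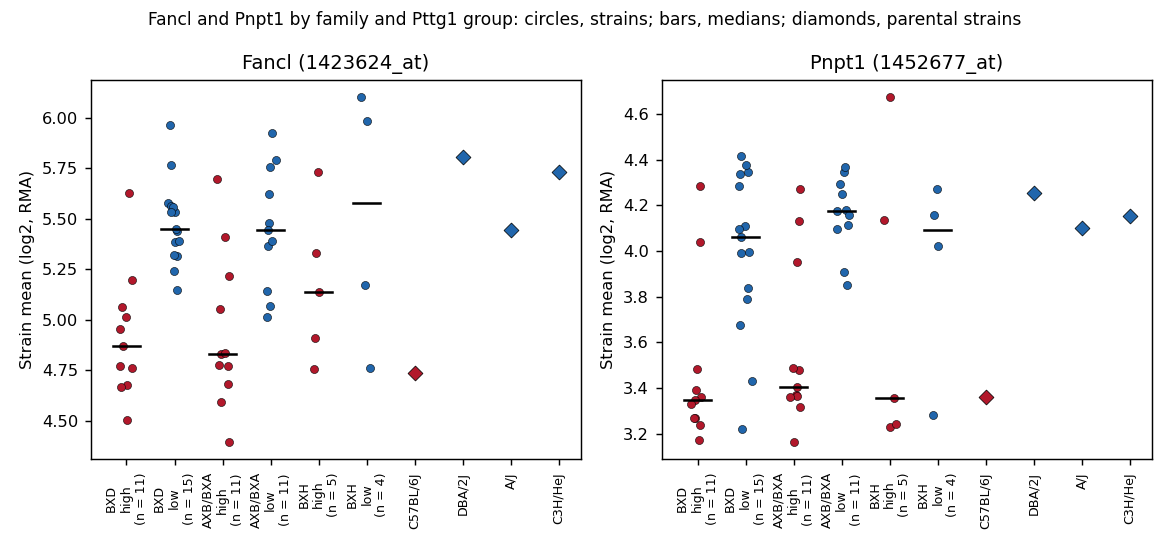
Strain means (log2 RMA values) of Fancl and Pnpt1 (_at probe set) in the Pttg1-high (red) and Pttg1-low (blue) strains of the BXD, AXB/BXA and BXH families. Medians are bars and the 4 parental strains are diamonds. The high group's median is below the low group's in each family for both genes, C57BL/6J lies with the high groups, and the ranges overlap in each family.

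The same split in other crosses of C57BL/6J asked whether these differences recur where Pttg1 segregates against another genome. In the AXB/BXA family 0 of 22324 probe sets (0%) were called and 805 (3.61%) had an unadjusted p below 0.05. In the BXH family 0 (0%) were called and 978 (4.38%) had an unadjusted p below 0.05. Fancl was lower in the AXB/BXA high strains by -0.52 ± 0.141 (SE, unadjusted p = 0.00127, adjusted p = 0.997 in limma). By its _at probe set Pnpt1 was lower there by -0.59 ± 0.118 (SE, unadjusted p = 5.97e-05, adjusted p = 0.379 in limma). In BXH, with 5 against 4 strains, the differences were -0.33 ± 0.300 and -0.21 ± 0.334 (SE), inside the spread between strains. The _a_at probe set of Pnpt1 went the other way, by +0.29 ± 0.20 (SE) in AXB/BXA and +0.36 ± 0.13 (SE) in BXH. Of the 838 BXD probe sets below 0.05, 45 (5.37%) were also below 0.05 in AXB/BXA, which is 5.59% of the 805 there. On chromosome 11, from 21 to 100 genes from Pttg1, 3 of 10 were shared, namely Fancl, Pnpt1 and Mpg, and all 3 were lower in both families. Within 20 genes 0 of 4 were shared, and on the rest of chromosome 11 6 of 47 (12.8%) were. The interaction between family and split, which tests whether the difference itself differed between BXD and AXB/BXA, called 0 probe sets (0%), with 682 below an unadjusted p of 0.05. Its unadjusted p was 0.822 for Fancl and 0.759 for Pnpt1 in limma.

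Without BXA16/PgnJ the AXB/BXA split still called 0 probe sets in limma, with 713 below an unadjusted p of 0.05. Fancl then differed by -0.51 ± 0.147 (SE), Pnpt1 by -0.57 ± 0.123 (SE, adjusted p = 0.531 in limma), Mpg by -0.43 ± 0.144 (SE), and the Ttc1 probe sets by -0.11 and -0.16. Irgm2 differed by +0.58 ± 0.218 (SE), Anxa6 by +0.56 ± 0.115 (SE, _a_at probe set), Tnfsf13 by -0.06 ± 0.123 (SE) and Hint1 by -0.04 ± 0.0673 (SE, _a_at probe set). Of the 838 BXD probe sets below 0.05, 38 (4.53%) were shared, which is 5.33% of the 713, and the 3 from 21 to 100 genes stayed at 3 of 10. The interaction called 0 probe sets, with 690 below an unadjusted p of 0.05 in limma.

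Over the 57 strains of the 3 families, with a term for the family, 2 of 22324 probe sets (0.00896%) were called, both lower in the high strains. This fit was added after the values had been seen. Fancl differed by -0.51 ± 0.0870 (SE, adjusted p = 0.00611 in limma) and the _at probe set of Pnpt1 by -0.50 ± 0.0966 (SE, adjusted p = 0.0374 in limma). The _a_at probe set of Pnpt1 differed in the other direction, by +0.21 ± 0.10 (SE), and was not called. Without BXA16/PgnJ, whose arrays disagree, Fancl kept its call (-0.50, adjusted p = 0.0117 in limma) and Pnpt1 did not (-0.49, adjusted p = 0.0684 in limma). Leaving out each of the 57 strains in turn, Fancl was called in every fit, at -0.55 to -0.49, while Pnpt1 lost its call in 42 of 57, at -0.54 to -0.48. Without the BXD strains neither Fancl (-0.47) nor Pnpt1 (-0.48) was called, with an adjusted p of 0.999 for each in limma, and Anxa6 was (+0.59, adjusted p = 0.0217).

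Of the other chromosome 11 genes, Hint1, Tnfsf13 and Anxa6 had a low unadjusted p in BXD or AXB/BXA and a small difference in the other cross, while Irgm2 differed by a like amount in both. Hint1, which encodes a nucleotide hydrolase 149 places from Pttg1, was at 10.48 ± 0.600 in the high and 9.69 ± 0.579 in the low BXD strains (SD, n = 11 and 15, _a_at probe set). The difference was +0.79 ± 0.224 (SE, unadjusted p = 0.00159, adjusted p = 0.983 in limma), and it was called only in the fit of single arrays (+0.87, adjusted p = 0.0464 in limma). In AXB/BXA it was -0.10 ± 0.0858 (SE). The Hint1 interaction term between the families had an unadjusted p of 0.00131 and an adjusted p of 1 in limma, so no difference between the crosses was called. C57BL/6J was higher than DBA/2J at this probe set by 1.56 (adjusted p = 2.36e-05 in limma), and its _at probe set differed by -0.06 in the BXD strains. Tnfsf13, the cytokine APRIL, lies 378 places away. It was higher in the BXD high strains by 0.51 ± 0.0999 (SE, adjusted p = 0.202 in limma) and differed by -0.04 ± 0.118 (SE) in AXB/BXA. Irgm2, an interferon-induced GTPase 177 places away, was higher by 0.56 ± 0.139 (SE, adjusted p = 0.983 in limma) in BXD and by 0.51 ± 0.219 (SE, adjusted p = 0.997) in AXB/BXA. Between the parents Irgm2 was not called. C57BL/6J differed from DBA/2J by -0.01, from A/J by -0.15 and from C3H/HeJ by -0.23. Anxa6, the calcium-binding annexin A6 152 places away, differed by +0.04 ± 0.113 (SE, _a_at probe set) in BXD and by +0.61 ± 0.121 (SE, adjusted p = 0.379) in AXB/BXA. Its interaction term had an unadjusted p of 0.00139 and an adjusted p of 1 in limma. These genes were also named after their values had been seen.

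The parents showed how far a C57BL/6J allele could be recognised in the split. Between C57BL/6J and DBA/2J, 113 of 22324 probe sets (0.506%) were called. Of those with a place on chromosome 11, the 1 within 21 to 100 genes of Pttg1 (Pnpt1) and 3 of 3 beyond 100 and up to 300 genes had a BXD difference in the parents' direction, and so did 2 of 3 farther away. On the other chromosomes 35 of 72 (48.6%) did.

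The genes that work with securin were described from lists. No member of any list was called, against 0% of all probe sets. Over 11724 genes with 1 probe set each, the median difference was 0.01, 6357 were above 0, and 436 (3.72%) had an unadjusted p below 0.05. Of the separase and cohesin genes 10 of 16 were measured. All 10 differences were below 0, from -0.20 to -0.05 with a median of -0.11, and 0 had an unadjusted p below 0.05. They included the cohesin ring subunits Smc3 (-0.14 ± 0.164 SE) and Rad21 (-0.11 ± 0.0767 SE), the ring's binding partner Stag2 (-0.09 ± 0.0980 SE) and its release factor Pds5a (-0.20 ± 0.161 SE). Members of the anaphase-promoting complex and the spindle checkpoint, 20 of 23 measured, had a median of -0.02, with 8 above 0 and 0 below an unadjusted p of 0.05. The scaffold subunit Anapc5 differed by -0.02 ± 0.0844 (SE) and the small subunit Anapc13 by +0.03 ± 0.0664 (SE), and over the list the 95% intervals of the differences reached from -0.81 to 0.38. Of the genes linked to securin in tumour cells, 9 of 10 were measured, with a median of 0.02 and 0 below an unadjusted p of 0.05. Pttg1ip, the securin-binding factor that carries it to the nucleus, differed by +0.02 ± 0.0664 (SE), and the cell cycle inhibitor Cdkn1a by -0.11 ± 0.208 (SE).

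None of the mitotic genes, whose transcripts usually accompany securin, was called. Of 25 listed genes 24 were measured, with 4 above 0, a median difference of -0.12 and 1 below an unadjusted p of 0.05, the replication helicase gene Mcm2 (-0.28 ± 0.127 SE, with a lower mean in the high strains). Mcm2 was named for this p-value. The proliferation antigen Mki67 was at 3.91 to 6.20 (median 4.17) in the high strains. Its difference was -0.43 ± 0.365 (SE), and the SD among low strains was 1.08. The mitotic kinase Cdk1 differed by -0.28 ± 0.205 (SE) and the replication clamp Pcna by -0.14 ± 0.0827 (SE). The adjusted p of each in limma was 0.983.

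Within the low group the strains with more Pttg1 had higher levels of the mitotic genes. A score was taken as the mean deviation of the 24 genes from their averages. Across the 15 low strains the Pttg1 values that chose the groups correlated with this score at Pearson's r = 0.756 and Spearman's rho = 0.729. The relation was looked at after the values had been seen and is given as a description, without p-values. Without BXD27/TyJ and BXD2/TyJ, the strains farthest from the median, r was 0.672. With the _a_at and _at probe sets of Pttg1, which the rule did not use, r was 0.629 and 0.753. These probe sets measure the same gene on the same arrays, so they are not independent of the _s_at probe set. The strains with the highest scores were BXD14/TyJ (0.745), BXD27/TyJ (0.384) and BXD2/TyJ (0.294), which also had the highest Pttg1 levels of the group. Taken singly, 24 of 24 genes correlated above 0 with Pttg1 in the low strains (median r = 0.596), led by the mitotic kinase Plk1 (0.834), Mcm2 (0.817) and Mki67 (0.782). These genes are not independent of each other.

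Thymocyte genes were high in some of the same strains. The thymocyte score correlated with Pttg1 across the low strains at r = 0.723 and rho = 0.657. It ran from -1.17 to 2.32 in the low strains and from -1.11 to 1.44 in the high strains. It was 2.32 in BXD27/TyJ and 1.82 in BXD14/TyJ, but -0.48 in BXD2/TyJ. When arrays whose thymocyte or squamous epithelium score exceeded 1 were left out, 12 low strains remained and r with the mitotic score was 0.758. The strains kept still differed in thymocyte score, for example -1.17 in BXD18/TyJ and -0.06 in BXD1/TyJ. The relation was not adjusted for that score, so the part of thymocyte RNA in it was not tested. In the 10 low strains of the later array numbers r was 0.827, while the 5 of the earlier numbers were too few for a value. In bulk tissue, more cells of a type and more RNA per cell cannot be told apart.

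In the high group the corresponding values were r = 0.158 and rho = -0.01 (n = 11), and the range of Pttg1 there was small. The difference between the groups' correlations was not tested. In the 11 AXB/BXA low strains r with the mitotic score was 0.591 and rho 0.718. The squamous epithelium score correlated with Pttg1 more strongly there, at r = 0.722, and the thymocyte score less, at r = 0.405. In the BXD low strains r with the squamous epithelium score was 0.131. Over the 21 low strains among the other inbred strains r with the mitotic score was 0.360 and rho 0.234. In those 21 strains r was 0.373 with the thymocyte score and -0.147 with the squamous epithelium score.

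**Figure D4:**
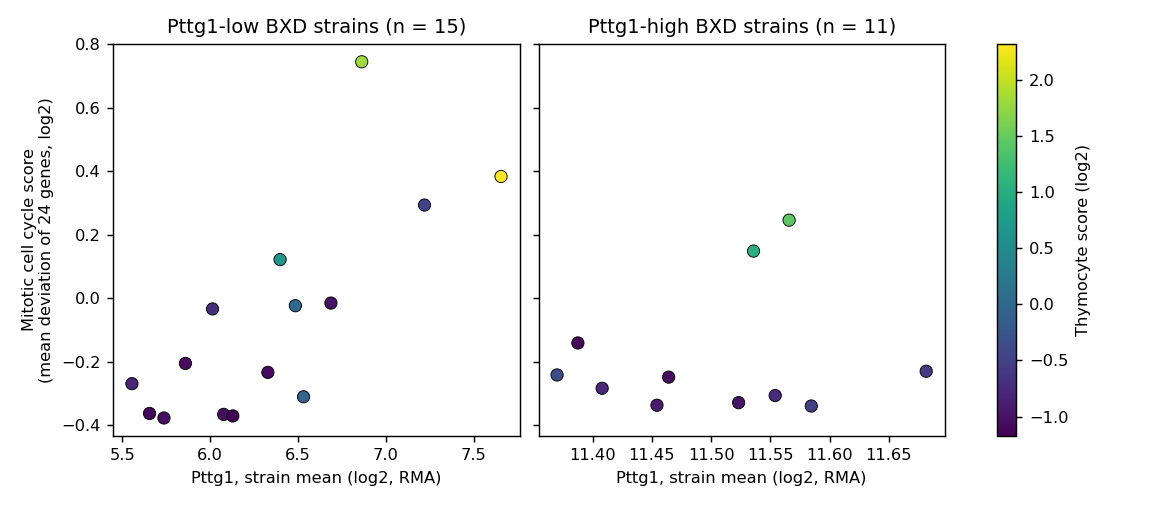
Mitotic cell cycle score (mean deviation of 24 genes, log2) against the Pttg1 level (strain mean, log2 RMA values) in the low (left) and high (right) BXD strains, coloured by the thymocyte score; the horizontal axes differ in range. In the low strains r is 0.756 (n = 15), with the highest thymocyte scores in BXD27/TyJ and BXD14/TyJ, and in the high strains r is 0.158 (n = 11).

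The marker lists of other cell types were described in the same way. No member was called in any of them. Of the smooth muscle contractile genes 1 of 11 was above 0, with a median of -0.23. Myh11, the smooth muscle myosin heavy chain, differed by -0.41 ± 0.202 (SE) and Acta2 by -0.18 ± 0.103 (SE), and Myocd, the cofactor that drives this programme, had the lowest value of the list at -0.58 ± 0.210 (SE, unadjusted p = 0.0102, adjusted p = 0.983 in limma). Elastic fibre and matrix genes had a median of -0.01 over 15 genes, with 7 above 0. Postn, the matricellular protein periostin, was at -0.37 ± 0.157 (SE, unadjusted p = 0.0278 in limma). Endothelial genes were above 0 in 12 of 12, with a median of 0.14, among them Vwf, the carrier of a clotting factor (+0.39 ± 0.151 SE, unadjusted p = 0.0165) and Eng, a TGF-beta coreceptor (+0.21 ± 0.118 SE). Adventitial fibroblast genes were above 0 in 7 of 7 (median 0.18) and macrophage genes in 11 of 12 (median 0.08). Myocd, Postn, Vwf and Nppa are given because their unadjusted p was below 0.05.

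Skeletal muscle, cardiac muscle and squamous epithelium genes had the largest list medians and the largest median standard errors. Skeletal muscle genes were above 0 in 13 of 13 with a median of 0.97, and their standard errors had a median of 1.06. The skeletal muscle score, the mean deviation over the list, ran from -2.15 to 2.74 in the high strains and from -4.09 to 3.47 in the low strains. Cardiac muscle genes were above 0 in 8 of 8 with a median of 0.71, and the atrial hormone Nppa differed by +1.94 ± 0.694 (SE, unadjusted p = 0.00956, adjusted p = 0.983 in limma). Its strain means ran from 7.65 to 11.46 in the high and from 3.33 to 10.96 in the low strains. In the other families Nppa went the other way, by -1.74 ± 0.606 (SE) in AXB/BXA and -0.75 ± 1.16 (SE) in BXH. The cardiac genes Tnni3 (+0.90) and Myl7 (+0.82) did so too, at -0.43 and -0.45 in AXB/BXA and -1.23 and -1.08 in BXH. The other cardiac genes are not given for those families. Squamous epithelium genes had a median of -0.47, with Krt4, a keratin of oesophageal lining, at -1.01 ± 1.26 (SE). Of the 13 measured, 2 were above 0. The 1 squamous gene with an unadjusted p below 0.05 in limma was higher in the high strains. The members of each of these lists vary together, so a count of signs is not a count of independent genes. The same caution holds for the counts of signs in the other lists. Brown adipocyte (median 0.01 over 7), adipocyte (-0.03 over 10), thymocyte (-0.09 over 11), B cell (-0.06 over 7), erythroid (0.04 over 4) and Schwann cell genes (0.15 over 4) completed the lists. The part of muscle or epithelium in the differences above was not tested. With the thymocyte, squamous and skeletal muscle scores as covariates, 0 probe sets were called.

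**Figure D5:**
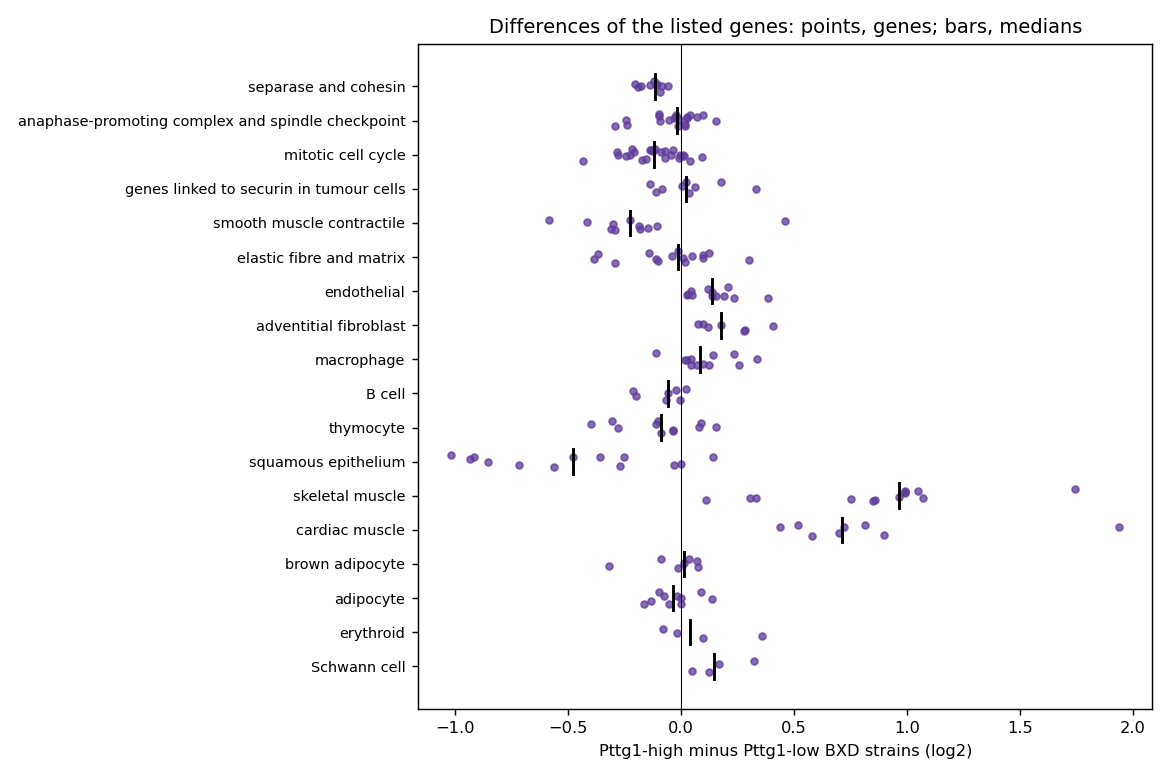
Difference between Pttg1-high and Pttg1-low BXD strains (log2) for each measured gene of the lists, with the list's median as a bar. Separase and cohesin genes lie between -0.20 and -0.05, while skeletal and cardiac muscle genes lie above 0 with medians of 0.97 and 0.71, and no point was called.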

How the data were processed

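The deposited values are log2 expression values of 188 HT_MG-430A arrays, summarised with RMA after GCOS, per the submitters' processing notes. No source used here gives their versions or a genome build. Of 22416 probe sets, 89 controls and the 3 of Pttg1 were not tested. Array medians lay between 4.55 and 4.88. Probe sets were named from the platform annotation (17783 with 1 symbol, 284 with several, 4260 with none). Gene order came from protein-coding genes of GRCm38.p6.

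The number of arrays, mostly 2 per strain, limits the precision, and nothing says that they came from separate animals. Each strain entered as 1 mean. Contrasts used limma 3.58.1 in R 4.3.3, called at a Benjamini-Hochberg adjusted p below 0.05, with unadjusted counts beside. Parents were contrasted on arrays in a fit of all strains. Correlations across strains are given as descriptions, without p-values. The fit was tested on simulated data. Members, lists and tests were chosen with earlier results of these data known. Named were the 5 measured genes on each side of Pttg1, called genes (none) and members of some of the lists. The plan was 2 to 4 genes of each list, the called ones or else those with the highest mean. Several lists have no gene named here, and some list members were named for a low unadjusted p instead. Other genes were named after their values had been seen.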

Additional observations from a re-analysis of the deposited data

Results flagged for a closer look

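RIIIS/J, an inbred strain outside the crosses, stood apart among the 6 inbred strains whose Pttg1 level by the _s_at probe set lay between 8 and 10. Its level there was 8.85, the highest of the group, and it was at 5.52 by the _at probe set, where the next strain was at 4.13, and at 8.22 by the _a_at probe set, where the next was at 5.53. These 2 gaps were 0.774 and 0.760 of the group's range, and both probe sets were at the level of the Pttg1-high BXD strains. Of 25 groups of 4 to 10 values looked at, 2 exceeded the limit, and about 1 in 20 is expected to do so. The probe sets of a gene share their arrays, so the 2 are not independent.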

How the results depend on the processing

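The 4 BXD counts (called higher, lower, on chromosome 11, and off it or without a place) were 0 as reported. They stayed at 0 with weights for the number of arrays, an intensity trend, the array-number block, tissue scores as covariates, centred arrays, a filter on low levels, 1 probe set per gene, strains with 2 or more arrays, without high-score arrays, with the split at 9, with BXD32/TyJ and without the strains named for a mutation. Only the fit of single arrays with the strain as a random block moved them, to 1 higher, 1 lower, 2 on chromosome 11 and 0 off it or without a place. Leaving out 1 strain gave 0 called higher, 0 to 2 lower, 0 to 1 on chromosome 11 and 0 to 1 off it or without a place. The strains were BXD20/TyJ (Fancl) and BXD12/TyJ (Fancl and a probe set without a gene name or place). Of 1864 alternative values for 48 probe sets, 96 changed sign, none of them called. The 48 were the close neighbours of Pttg1, up to 2 genes of each list, Fancl and Pnpt1. Other genes named in the text, such as Nppa, Serpina1b and Hint1, were not among them.

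Over the 3 families, the count of 2 became 1 without BXA16/PgnJ, with the array-number block, with centred arrays and without the BXD strains, and 1 to 2 when leaving out each strain. In AXB/BXA, the count of 0 became 3 with a split at 9 (Pnpt1 and 2 probe sets of Anxa6). The correlation of Pttg1 with the mitotic score in low strains ran from 0.718 to 0.829 leaving out each strain, and was 0.629 and 0.753 with the other Pttg1 probe sets. No paired analysis was possible because replicate numbers only name arrays within a strain. The files hold no detection calls, so small differences in genes at low levels, such as Gabra6 and Fabp6, cannot be told from background.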

Other observations

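The BXD strains outside the comparison were read for the chromosome 11 genes that lay lower in the Pttg1-high strains. BXD32/TyJ, with Pttg1 at 11.61, had Fancl at 4.35 and Pnpt1 at 3.34, the former below all 11 high strains compared and the latter inside their range. Its arrays were closest to C57BL/6J over the strain-separating probe sets (0.805 and 0.828), while they correlated at 0.535 with each other.

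The 4 BXD19/TyJ arrays had Fancl at 5.96, 6.11, 5.50 and 5.58 and Pnpt1 at 4.07, 4.39, 4.08 and 4.23. Replicates 3 and 4, which carried Pttg1 at the level of the high strains, thus had Fancl and Pnpt1 near the medians of the low strains. Among the high strains compared, BXD20/TyJ (Fancl 5.63, Pnpt1 4.29) was like them, and BXD24/TyJ-Cep290<rd16>/J had Pnpt1 near the low strains' median (4.04) and Fancl at 5.20, above only 1 of the 15 low strains. Over the 26 strains compared, Fancl and Pnpt1 correlated at r = 0.690, at 0.801 within the 11 high strains and at 0.0840 within the 15 low strains. These correlations describe probe sets measured on the same arrays, and no test was made of them.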
